A study of Mus musculus with 8 samples.

Results

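Protein folding in the endoplasmic reticulum (ER) was followed in mouse cortex through 9 genes: *Hspa5*, *Hsp90b1*, *Dnajc3*, *Calr*, *Canx*, *Pdia3*, *Pdia4*, *Pdia6* and *Xbp1*. The genes were chosen with earlier results of these data known. Their probe sets were then taken by gene symbol alone from the annotation of the array, which gave 15 of the 12422 probe sets that are not controls. Of these, 13 probe sets, of 8 of the 9 genes, passed the filter on low signals and were tested among 7453 probe sets. *Calr* had no tested probe set.

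The study asked how gene expression in the cortex differs with time of day and with the loss of SHARP1 and SHARP2, a pair of transcription factors that modulate the circadian clock. Each of 8 Affymetrix arrays held cortical RNA of 1 mouse. The groups were 2 S1/2-/- mice at ZT16, 2 S1/2-/- mice at ZT4, 2 wild-type (WT) mice at ZT16 and 2 WT mice at ZT4, all of strain C57/bl6 and 4 months old. S1/2-/- mice lack both SHARP1 and SHARP2 in the whole body, so that the cortex is not the only tissue concerned. Zeitgeber time (ZT) counts hours from lights on: ZT16 lies in the dark phase, when mice are mostly awake, and ZT4 in the light phase. Tissue was taken from coronal slices, and no agent was given. Values are MAS5 signals, the manufacturer's summary of a probe set on a linear scale. The number of arrays limits the precision.

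Secreted and membrane proteins are folded in the ER by HSP70 and HSP90 type chaperones, by lectin chaperones that hold glycoproteins, and by disulphide isomerases that form and reshuffle disulphide bonds. When unfolded proteins accumulate, sensors in the ER membrane start the unfolded protein response, in which the transcription factors ATF6 and XBP1 raise transcription of these same chaperones through a promoter sequence called the ER stress response element. In the brain the system serves the making of receptors, channels and secreted proteins, and the amount of HSPA5 protein has been tied to wakefulness and sleep loss in rodents.

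What the members share beyond their function can be seen in their promoters. Windows of 300 bases, from 250 before to 50 after the annotated start of each gene, came from RefSeq (GRCm38.p6), with 1 window per member. The full ER stress response element, CCAAT and CCACG with 9 bases of any kind between them, searched on either strand, was found in the windows of 6 of the 9 members (66.7%), against 39 of 32851 windows of all genes (0.119%). The windows of all genes include those of the members. The element is the one named above for these same chaperones, so the contrast is a description and not an independent result. A shorter form that ends in CCAC, and which every full element also contains, was found in 8 of 9 members, against 0.365% of all windows. *Xbp1* was the member with neither form. The matches are printed because most members share them, with 20 bases on each side, cut at the annotated start where it is nearer. They read 5′ to 3′ on the strand of the gene, with the element in capitals. Elements that lie opposite to the gene read as the reverse complement.
Hspa5: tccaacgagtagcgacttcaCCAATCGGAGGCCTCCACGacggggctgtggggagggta
Hsp90b1, far element: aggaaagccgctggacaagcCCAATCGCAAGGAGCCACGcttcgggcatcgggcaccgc
Hsp90b1, near element, opposite: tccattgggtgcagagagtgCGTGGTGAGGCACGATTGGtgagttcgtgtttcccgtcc
Dnajc3: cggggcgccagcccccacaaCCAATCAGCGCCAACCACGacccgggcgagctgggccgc
Calr, opposite: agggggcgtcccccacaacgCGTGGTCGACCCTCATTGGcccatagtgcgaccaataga
Canx: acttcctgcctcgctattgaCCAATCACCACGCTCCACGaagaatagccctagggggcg
Pdia6: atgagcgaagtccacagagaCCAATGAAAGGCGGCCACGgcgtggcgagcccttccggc
Pdia3, shorter form: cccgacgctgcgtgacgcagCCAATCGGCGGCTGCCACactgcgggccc
Pdia4, shorter form, opposite: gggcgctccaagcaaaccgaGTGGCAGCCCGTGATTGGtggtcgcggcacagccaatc

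These stretches lie at chr2:34772005-34772063 (plus strand, *Hspa5*), chr10:86705618-86705676 and chr10:86705513-86705571 (minus strand, *Hsp90b1*), chr14:118937807-118937865 (plus strand, *Dnajc3*), chr8:84847055-84847113 (minus strand, *Calr*) and chr11:50325780-50325838 (minus strand, *Canx*). The others lie at chr12:17266471-17266529 (plus strand, *Pdia6*), chr2:121413853-121413901 (plus strand, *Pdia3*) and chr6:47813582-47813639 (minus strand, *Pdia4*). In *Hspa5* the element began 65 bases before the start of the gene. The elements of *Hsp90b1* began 212 and 107 bases before it, and that of *Dnajc3* 105 bases. Those of *Calr* and *Canx*, which encode the lectin chaperones, began 162 and 145 bases before the start. SHARP1 and SHARP2 bind the E-box CACGTG, a palindrome that was found in the window of 1 member, *Calr*, where it began 224 bases before the start, and in 7.15% of all windows. A further element of the unfolded protein response, TGACGTGG on either strand, which shares the letters ACGTG with the E-box, was in the window of 0 of 9 members and in 0.676% of all windows. A match describes the letters of a window and is not a binding site shown in these mice.

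**Figure D1:**
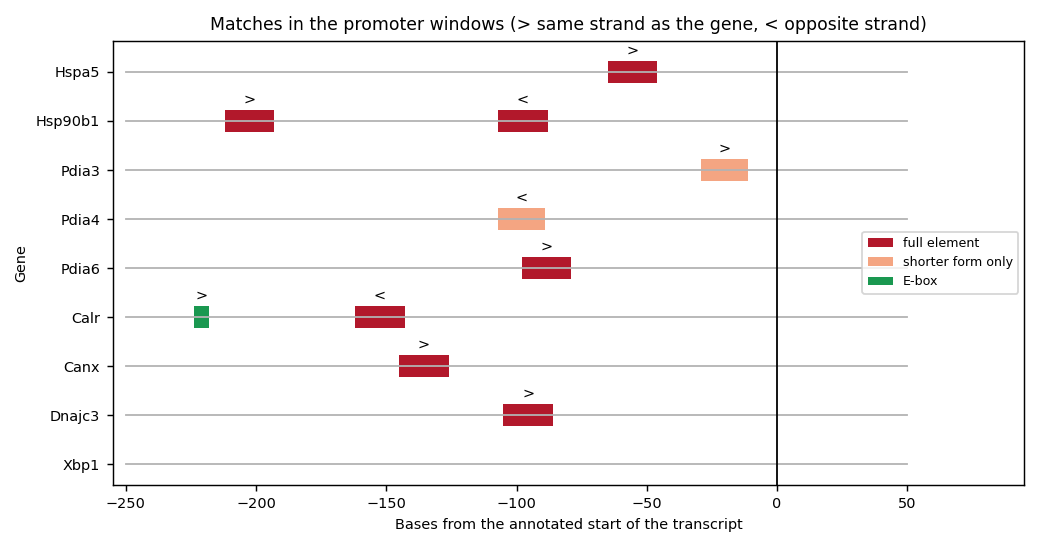
Position of sequence matches in the promoter windows of the 9 members, in bases from the annotated start of the transcript; marks above a box give the strand of the match. Of the members, 6 hold the full element (dark red, with a pair of boxes in Hsp90b1), Pdia3 and Pdia4 hold the shorter form only (light red), Calr also holds an E-box (green), and Xbp1 holds no match.

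*Hspa5* encodes BiP, the HSP70 chaperone of the ER lumen and the main brake on the sensors of the unfolded protein response. Its probe set gave signals of 3821 and 3330.45 in S1/2-/- mice at ZT16, against 2657 and 2171 in S1/2-/- mice at ZT4. In WT mice it gave 3102 and 2988 at ZT16, against 2606 and 2689 at ZT4. All 4 mice at ZT16 were above all 4 mice at ZT4, which held for 2.78% of the 7453 tested probe sets in this direction, and the S1/2-/- mice held both the highest and the lowest value. The difference was 1.49-fold in S1/2-/- mice (log2 fold change 0.57, SE 0.12, 95% interval 0.30 to 0.84) and 1.15-fold in WT mice (log2 fold change 0.20, SE 0.12, interval -0.07 to 0.47). Neither passed over all probe sets (limma, Benjamini-Hochberg adjusted p = 0.441 in S1/2-/- and 0.705 in WT), nor did the mean over both genotypes, with a log2 fold change of 0.39 (SE 0.08, limma adjusted p = 0.327). The changes with time differed by 0.37 on the log2 scale (S1/2-/- minus WT), with an interval of -0.01 to 0.75 (limma adjusted p = 0.875). In bulk tissue, fewer cells of a type and less RNA per cell cannot be told apart, here and for the other genes.

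*Hsp90b1* encodes GRP94, the HSP90 paralogue of the ER, which folds a narrow set of clients that includes Toll-like receptors and integrins. It gave 3623 and 3079 in S1/2-/- mice at ZT16, against 3053 and 2718 at ZT4. In WT mice it gave 3004 and 3194 at ZT16, against 3125 and 2884 at ZT4. The S1/2-/- mice at ZT16 lay above those at ZT4, as held for 21% of all tested probe sets, here by a narrow margin. The WT mice at the 2 times overlapped. The log2 fold change with time was 0.21 (SE 0.11) in S1/2-/- and 0.05 (SE 0.11) in WT mice (limma adjusted p = 0.720 and 0.945). Over the 8 arrays its log2 signal followed that of *Hspa5* (r = 0.84), the highest correlation of any other member with *Hspa5*. The arrays share mice and scaling between all probe sets, and this correlation is given as a description.

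*Dnajc3* encodes P58IPK, a J-domain partner of BiP. Its 3 tested probe sets differed in their pattern. Probe set 94343_at gave 683 and 543 in S1/2-/- mice at ZT16 and 446 and 580.3 at ZT4, against 528 and 609 in WT mice at ZT16 and 517 and 435 at ZT4. Probe set 102415_r_at gave 516 and 389.6 in S1/2-/- mice at ZT16 and 337 and 446 at ZT4, against 349.8 and 107 in WT mice at ZT16 and 361 and 241 at ZT4. Probe set 102414_i_at gave 287 and 263 in S1/2-/- mice at ZT16 and 363 and 301 at ZT4, against 278 and 213 in WT mice at ZT16 and 287 and 247 at ZT4.

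In the first of these the log2 fold change with time was 0.26 in either genotype (SE 0.20). In the third it was -0.27 in S1/2-/- and -0.13 in WT mice (SE 0.24), so that the direction opposed that of the first. The second probe set had 1 array far below the others, WT ZT16 replicate 2, and the difference between S1/2-/- and WT mice at ZT16, with a log2 fold change of 1.21 (SE 0.46, limma adjusted p = 0.382), was 0.36 without that mouse. With that mouse kept and WT ZT16 replicate 1 left out it was 2.06, which passed the threshold (limma adjusted p = 0.0187) in a fit where 154 of all probe sets passed, against 1 with all arrays. The suffixes r and i mark probe sets for which the full design rules could not be met, and both came from the same source sequence. Among the 3 probe sets, the correlations over the 8 arrays were 0.70, 0.10 and -0.28. The remaining probe set, 161868_r_at, gave 2.38 to 39.4 on the 8 arrays and did not pass the filter on low signals.

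*Canx* encodes calnexin, the membrane-bound lectin chaperone, and *Calr* its soluble relative calreticulin. Probe set 94886_at of *Canx* gave 383 and 466 in S1/2-/- mice at ZT16 and 356 and 398 at ZT4, against 413 and 360.2 in WT mice at ZT16 and 306 and 264 at ZT4. Probe set 160180_at gave 287 and 269 in S1/2-/- mice at ZT16 and 206 and 294 at ZT4, against 194 and 205 in WT mice at ZT16 and 141 and 176 at ZT4. In both probe sets the WT mice at ZT4 were the lowest of the 8, and in 160180_at all 4 S1/2-/- mice lay above all 4 WT mice, as did 3.43% of all tested probe sets.

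At ZT4 the log2 fold change of S1/2-/- over WT was 0.40 (SE 0.20) for 94886_at and 0.64 (SE 0.28) for 160180_at (limma adjusted p = 0.725 and 0.663). At ZT16 it was 0.13 and 0.48 (SE 0.20 and 0.28). With time, *Canx* was higher at ZT16 by 0.44 and 0.34 in WT mice on the log2 scale, and the values in S1/2-/- mice were 0.17 and 0.18, with none past the threshold (limma adjusted p from 0.641 to 0.919). The probe sets of *Canx* correlated with each other at 0.70 over the 8 arrays. *Calr* gave 7.02 and 76.2 in S1/2-/- mice at ZT16 and 12.0 and 79.0 at ZT4, against 29.9 and 11.1 in WT mice at ZT16 and 37.5 and 10.1 at ZT4. These signals are low for the arrays, and the replicates of every group differed several-fold. In a fit with no filter on low signals the log2 fold change of *Calr* was -0.41 with time in S1/2-/- and -0.10 in WT mice, and 0.35 and 0.66 for S1/2-/- over WT at ZT16 and ZT4, each with an SE of 1.32 (limma adjusted p from 0.965 to 0.994).

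*Pdia3* encodes ERp57, the disulphide isomerase that works on glycoproteins held by calnexin and calreticulin. It gave 1095 and 1099.9 in S1/2-/- mice at ZT16, against 1305 and 949.5 at ZT4. In WT mice it gave 899.9 and 778 at ZT16, against 1333 and 1159.9 at ZT4. The WT mice at ZT16 were the lowest of the 8, below the WT mice at ZT4 and below the S1/2-/- mice at ZT16. The first of these held for 18% of all tested probe sets and the second for 21%. In the S1/2-/- mice the values at ZT4 spanned those at ZT16.

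The log2 fold change of *Pdia3* with time was -0.02 (SE 0.17) in S1/2-/- and -0.57 (SE 0.17, interval -0.94 to -0.20) in WT mice (limma adjusted p = 0.995 and 0.539). In WT mice the sign was opposite to that of *Hspa5*. In S1/2-/- mice the value of *Pdia3* had no settled sign, as it ran from -0.25 to 0.21 with 1 mouse left out. The changes of the genotypes differed by 0.55 on the log2 scale (interval 0.02 to 1.08, limma adjusted p = 0.868), and at ZT16 *Pdia3* was 1.31-fold higher in S1/2-/- than in WT mice (limma adjusted p = 0.434).

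*Pdia4* encodes ERp72, a disulphide isomerase found in complexes with BiP and GRP94. It gave 838 and 648 in S1/2-/- mice at ZT16, against 679 and 461 at ZT4. In WT mice it gave 732 and 213 at ZT16, against 595 and 638 at ZT4. The array of WT ZT16 replicate 2 was the lowest, as it was for 102415_r_at of *Dnajc3*, and these probe sets correlated at 0.83 over the 8 arrays. The log2 fold change with time was 0.40 in S1/2-/- and -0.64 in WT mice (SE 0.45, limma adjusted p = 0.875 and 0.732), and the WT value rested on that array. Without it the WT value was 0.25, and without WT ZT16 replicate 1 it was -1.53, which passed the threshold (limma adjusted p = 0.0259) as did 100 of all probe sets in that fit, against 1 with all arrays. The difference of S1/2-/- from WT mice at ZT16, 0.90, was 0.01 without that array and 1.79 without the other WT mouse at ZT16 (limma adjusted p = 0.0156).

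*Pdia6* encodes P5, a disulphide isomerase that also acts on the sensors of the unfolded protein response. Probe set 94208_at gave 1071 and 903 in S1/2-/- mice at ZT16 and 801 and 948 at ZT4, against 969 and 883 in WT mice at ZT16 and 849.7 and 791 at ZT4. Probe set 94209_g_at gave 583 and 543 in S1/2-/- mice at ZT16 and 479 and 398 at ZT4, against 539.5 and 435 in WT mice at ZT16 and 539 and 469 at ZT4. Probe set 94207_at gave 498 and 461 in S1/2-/- mice at ZT16 and 492 and 312 at ZT4, against 337 and 273 in WT mice at ZT16 and 245 and 334 at ZT4.

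All 3 probe sets were highest in S1/2-/- ZT16 replicate 1. The log2 fold change with time in S1/2-/- mice was 0.18, 0.37 and 0.29 in this order (SE 0.15, 0.18 and 0.26), and in WT mice it was 0.17, -0.05 and 0.09. The third probe set, which comes from another source sequence than the first and second, was 1.58-fold higher in S1/2-/- than in WT mice at ZT16 without overlap (log2 fold change 0.66, SE 0.26, limma adjusted p = 0.398), where the first gave 0.09 and the second 0.22. Such non-overlap in this direction held for 21% of all tested probe sets. Among the 3 the correlations over the 8 arrays were 0.23 to 0.40.

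*Xbp1* encodes the transcription factor that the sensor IRE1 activates by splicing of its mRNA, and it is itself a target of ATF6. A signal of the whole transcript does not tell the spliced from the unspliced form. It gave 1707 and 1468 in S1/2-/- mice at ZT16, against 1246 and 1271 at ZT4. In WT mice it gave 1928 and 2374 at ZT16, against 1691 and 1404 at ZT4. In either genotype both mice at ZT16 lay above both mice at ZT4, and at either time both S1/2-/- mice lay below both WT mice. Of all tested probe sets, 21% in S1/2-/- and 17.9% in WT mice were higher at ZT16 in this way. Likewise, 21% at ZT16 and 19.9% at ZT4 were lower in S1/2-/- mice.

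The log2 fold change of *Xbp1* with time was 0.33 (SE 0.14) in S1/2-/- and 0.47 (SE 0.14) in WT mice (limma adjusted p = 0.675 and 0.563), and the changes differed by -0.14 (interval -0.60 to 0.31, limma adjusted p = 0.949). S1/2-/- over WT gave -0.43 at ZT16 and -0.29 at ZT4 (limma adjusted p = 0.365 and 0.726), and -0.36 as the mean over both times (SE 0.10, interval -0.59 to -0.13, limma adjusted p = 0.234). No member had a lower adjusted p in any of the 7 comparisons. *Xbp1* was the only tested probe set of the 13 whose difference of the genotypes was below 0 at ZT16. Its highest values, in WT mice at ZT16, fell on the arrays with the highest signal of *Ttr*, the transthyretin gene of the choroid plexus. The lowest *Xbp1* value, 1246, fell on the array with the next highest *Ttr* signal, S1/2-/- ZT4 replicate 1. *Igfbp2*, another marker of choroid plexus, gave 1027 and 885 in WT mice at ZT16 and 841 and 1092 at ZT4. *Ttr* gave 102 and 150.4 in S1/2-/- mice at ZT16 and 1456 and 146 at ZT4, against 2582 and 2412 in WT mice at ZT16 and 83.2 and 331 at ZT4. The part of choroid plexus in the *Xbp1* values was not tested.

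**Figure D2:**
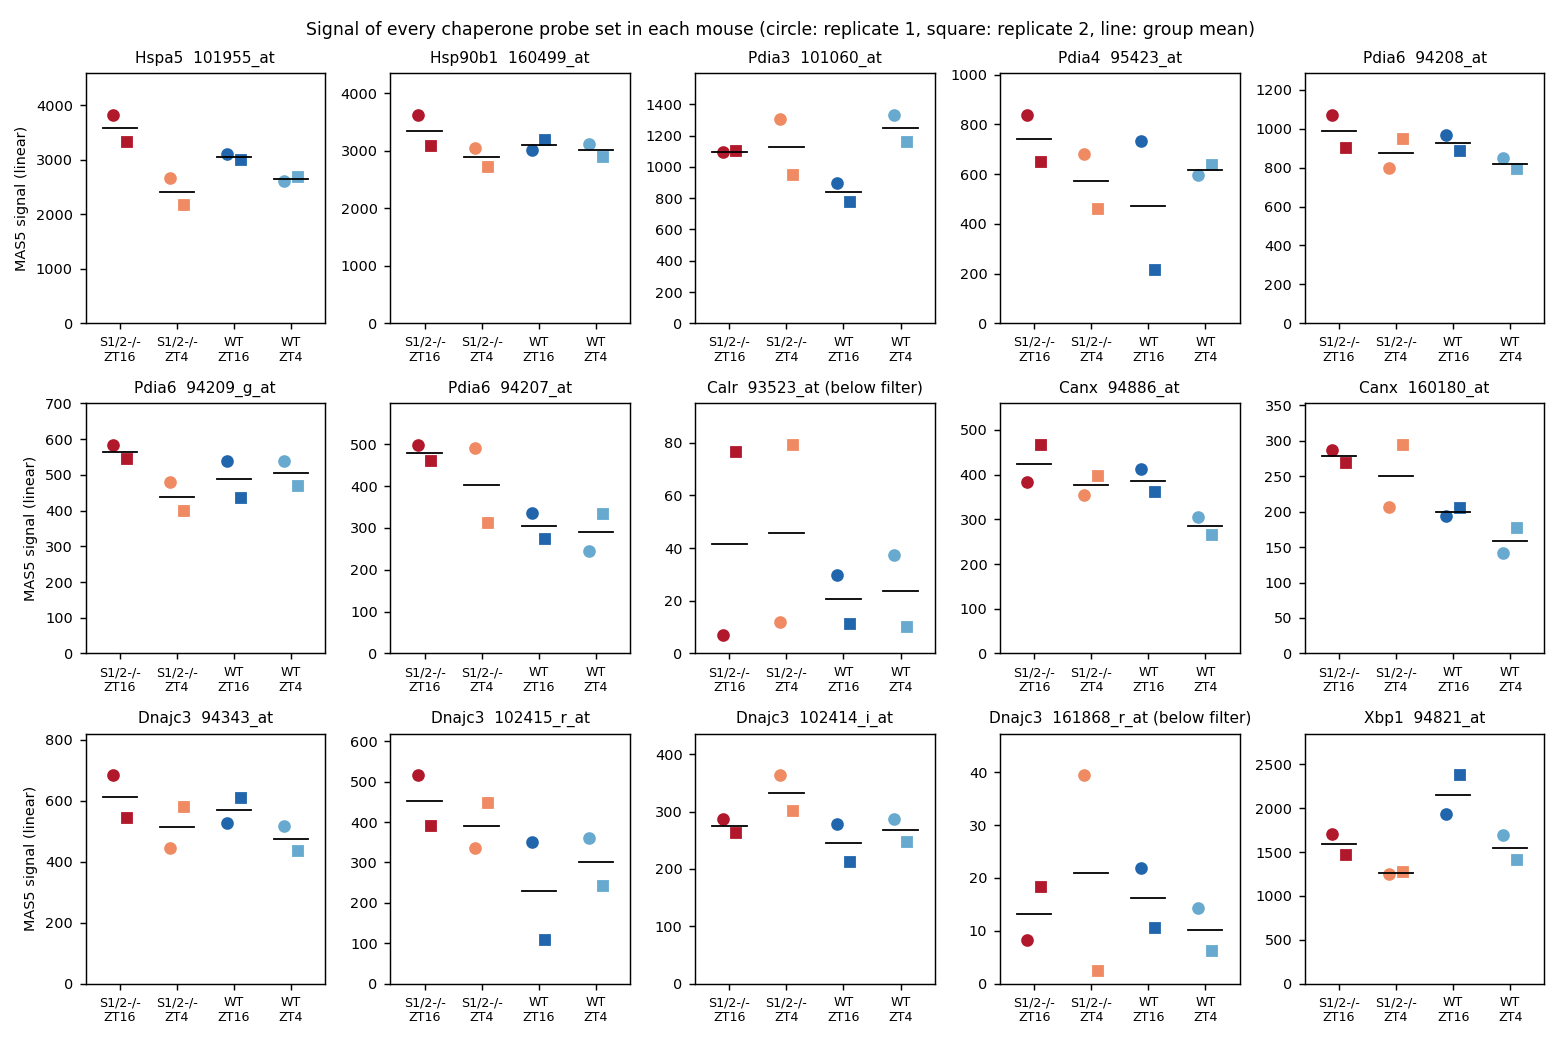
MAS5 signal on a linear scale of each of the 15 probe sets, with a panel for each; a circle is replicate 1, a square replicate 2 and a line the mean of the 2 mice of a group. Hspa5 and Xbp1 are higher at ZT16 than at ZT4 in both genotypes, Xbp1 is lower in S1/2-/- than in WT mice at both times, and the low square of WT ZT16 stands out in Pdia4 (213) and in 102415_r_at of Dnajc3 (107).

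Over the members as a group, the question was whether the ER chaperones differed with time. Unless genes are named as the unit, the members counted here and below are the 13 tested probe sets, of 8 genes. The median log2 fold change of the 13 probe sets in S1/2-/- mice was 0.21 and 11 of them were higher at ZT16, beside 49.5% of all tested probe sets and a median of -0.003 over them. In WT mice the median was 0.09 and 8 of 13 were higher at ZT16, beside 49.4% of all. The exceptions in S1/2-/- mice were *Pdia3* and 102414_i_at of *Dnajc3*. Quantile normalization and median centring gave 11 of 13 and 8 of 13 above 0. The WT values rested on WT ZT16 replicate 2: with that mouse left out, 12 of 13 were higher at ZT16 and the median was 0.24, close to the values in S1/2-/- mice. Among S1/2-/- mice the median was 0.13 without ZT16 replicate 1 and 0.35 without ZT16 replicate 2. Since *Dnajc3* and *Pdia6* have 3 tested probe sets each and *Canx* has 2, the genes were also counted once each, by the probe set of highest mean, which gave 7 of 8 higher at ZT16 in S1/2-/- mice (median 0.24) and 6 of 8 in WT mice (median 0.19).

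To pass, a probe set needed both a fold above 1.5 and an adjusted p below 0.05 in limma (Benjamini-Hochberg). In S1/2-/- mice 0 of 13 members passed, as did 0 of all 7453 probe sets (0%), and 2 members, *Hspa5* and *Xbp1*, had an unadjusted p under 0.05, beside 7.31% of all. This count was 1 without S1/2-/- ZT16 replicate 1 or either S1/2-/- mouse at ZT4. In WT mice 0 of 13 passed, beside 1 of all (0.0134%), and 2 members, *Pdia3* and *Xbp1*, had an unadjusted p under 0.05, beside 7.61% of all. Leaving out WT ZT16 replicate 1 made this count 4, and leaving out any other WT mouse made it 1. The 2 mice at ZT16 did not overlap the 2 at ZT4 for 4 members higher and 1 lower in S1/2-/- mice and for 6 higher and 1 lower in WT mice, beside 41.4% and 36% of all probe sets in either direction.

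The difference between the genotypes in the change with time was above 0 for 8 of 13 members and for 51.3% of all, with medians of 0.17 and 0.01. Median centring and quantile normalization gave 7 of 13. The median was 0.06 without WT ZT16 replicate 2, 0.05 without S1/2-/- ZT16 replicate 1 and 0.08 over the 8 genes counted once each, of which 5 were above 0. Of the members 0 passed, as of all probe sets (0%), and 1, *Pdia3*, had an unadjusted p under 0.05, beside 5.69% of all. This count was 0 without WT ZT4 replicate 1, WT ZT16 replicate 2, S1/2-/- ZT4 replicate 2 or S1/2-/- ZT16 replicate 1, 2 when S1/2-/- ZT4 replicate 1 was left out and 3 when WT ZT16 replicate 1 was. Averaged over both genotypes, the median was 0.17, with 9 of 13 members higher at ZT16, beside 49.3% of all and a median of -0.004. In this mean 0 members passed (0% of all), and 3 had an unadjusted p under 0.05 (*Hspa5*, *Xbp1* and, lower at ZT16, *Pdia3*), beside 9.38% of all.

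**Figure D3:**
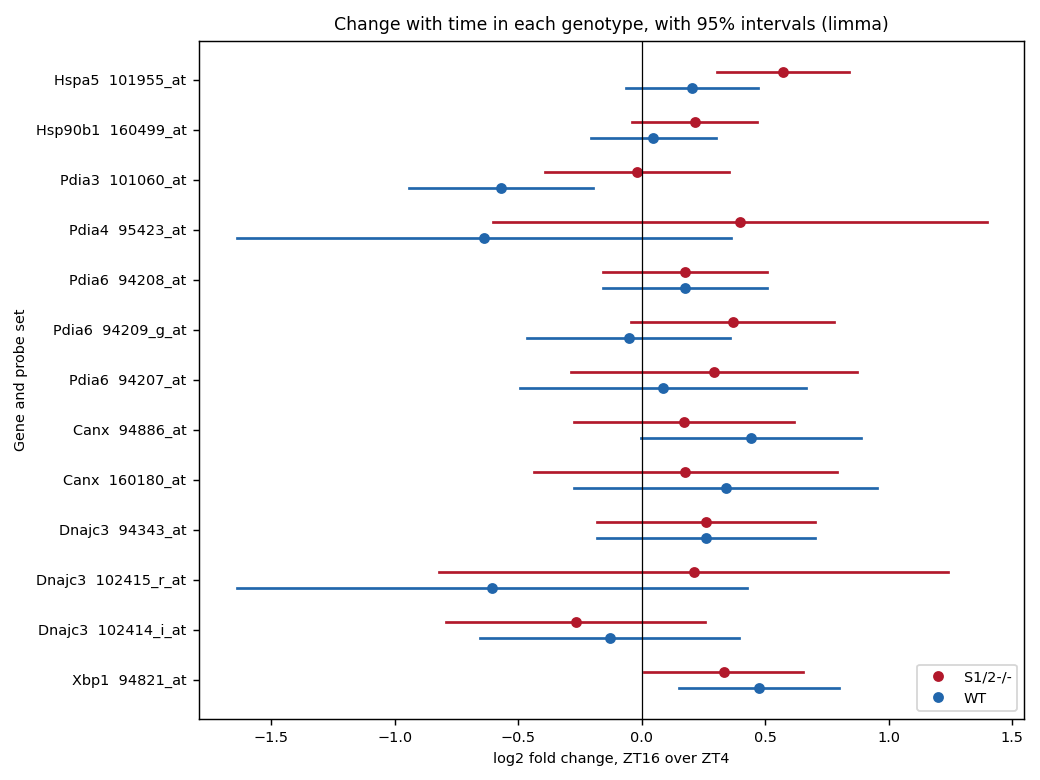
Log2 fold change of ZT16 over ZT4 in S1/2-/- (red, upper) and WT (blue, lower) mice for each of the 13 tested probe sets; points are limma estimates and bars their 95% intervals. The interval of Hspa5 lies above 0 in S1/2-/- mice (0.30 to 0.84), that of Pdia3 lies below 0 in WT mice (-0.94 to -0.20), and the widest bars belong to Pdia4 and 102415_r_at of Dnajc3.

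Set against WT mice, S1/2-/- mice at ZT16 gave a median log2 fold change of 0.22 and higher signals in 12 of 13 probe sets, beside 50.8% of all probe sets and a median of 0.006. Median centring lowered this to 11 of 13 with a median of 0.11. Leaving out S1/2-/- ZT16 replicate 1 gave 9 of 13 with a median of 0.17, and the median was 0.37 without WT ZT16 replicate 1. With each gene counted once, 7 of 8 were higher and the median was 0.12. Of the members 0 passed, beside 0.0134% of all, and 4 had an unadjusted p under 0.05, beside 10.9% of all: 102415_r_at of *Dnajc3*, 94207_at of *Pdia6* and *Pdia3*, which were higher, and *Xbp1*, which was lower. This count was 0 without WT ZT16 replicate 2 and 1 without either S1/2-/- mouse at ZT16. Non-overlap was found for 6 members higher and 1 lower, beside 42% of all.

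At ZT4 the same comparison gave 7 of 13 members above 0, with a median of 0.09, beside 49.3% of all and a median of -0.004. The direction turned when each gene was counted once, by its probe set of highest mean, with 3 of 8 above 0 and a median of -0.10, and it turned without WT ZT4 replicate 2, with 6 of 13 above 0 and a median of -0.02. Of the members 0 passed, beside 7 of all (0.0939%), and 1, 160180_at of *Canx*, had an unadjusted p under 0.05, beside 7.29% of all. This was 0 without WT ZT4 replicate 1 or either S1/2-/- mouse at ZT16, and 2 without WT ZT4 replicate 2 or WT ZT16 replicate 1. The log2 fold change of *Hspa5* in S1/2-/- over WT mice was -0.14 at ZT4 and 0.23 at ZT16 (SE 0.12, limma adjusted p = 0.854 and 0.512). With 1 S1/2-/- mouse left out, the value at ZT4 was -0.29 without ZT4 replicate 1 and 0.0056 without ZT4 replicate 2, and that at ZT16 was 0.13 without ZT16 replicate 1 and 0.33 without ZT16 replicate 2. Averaged over both times, 12 of 13 members were above 0, with a median of 0.12, beside 50.4% of all and a median of 0.002. The count was 9 after median centring, where the median was 0.048, and 11 after quantile normalization. It was 9 without S1/2-/- ZT4 replicate 1 or S1/2-/- ZT16 replicate 1, and 10 without WT ZT4 replicate 2 or WT ZT16 replicate 2. The median was 0.066 without WT ZT4 replicate 2, 0.063 without WT ZT16 replicate 2, 0.23 without S1/2-/- ZT4 replicate 2 and 0.10 over the 8 genes counted once each, of which 7 were above 0. Of the members 0 passed, beside 19 of all (0.255%), and 4 had an unadjusted p under 0.05, beside 12.4% of all: *Xbp1*, 94207_at of *Pdia6*, 160180_at of *Canx* and 102415_r_at of *Dnajc3*. The last 3, which were higher, are not the probe sets of highest mean of their genes, and among the 8 genes counted once each, *Xbp1* alone, which was lower, had an unadjusted p under 0.05. Over the 13 probe sets the count was 2 without WT ZT4 replicate 1 or S1/2-/- ZT4 replicate 2. The comparisons share their arrays and are not independent of each other.

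**Figure D4:**
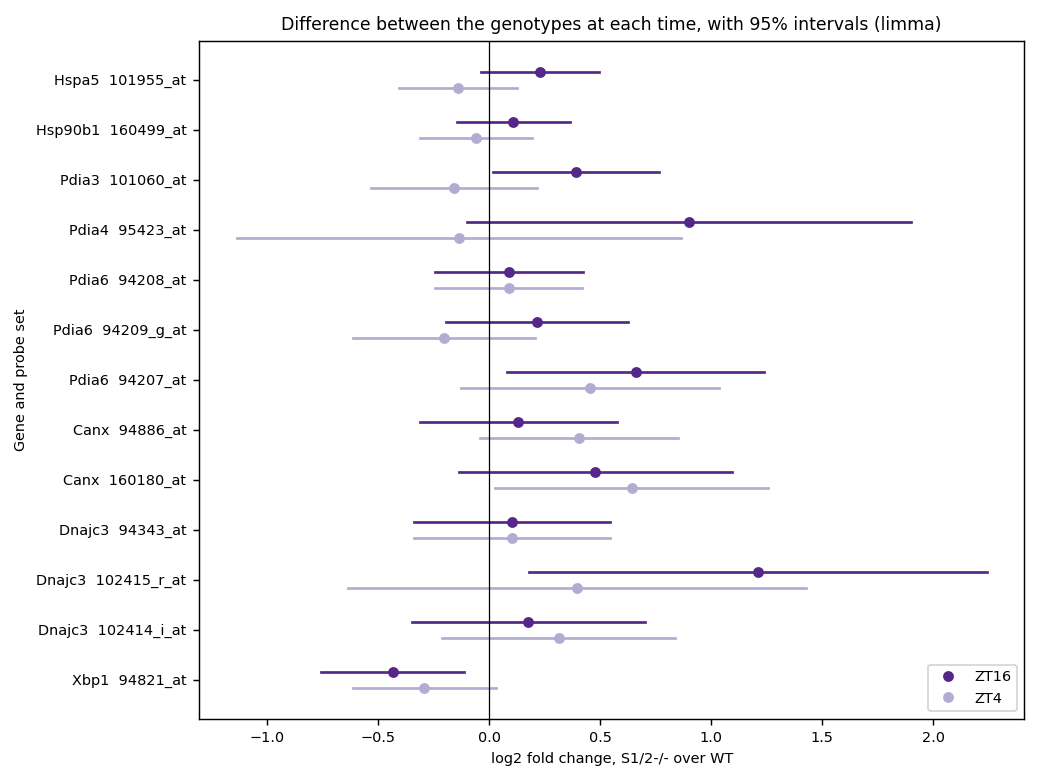
Log2 fold change of S1/2-/- over WT mice at ZT16 (dark, upper) and ZT4 (light, lower) for each of the 13 tested probe sets; points are limma estimates and bars their 95% intervals. Of the 13 dark points, 12 lie above 0 and Xbp1 lies below it at both times (-0.43 at ZT16 and -0.29 at ZT4).

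Markers of other cells moved with the groups. All 8 tested oligodendrocyte markers were higher in S1/2-/- than in WT mice at both times. At ZT4, 3 of them (*Cldn11*, *Mobp* and *Mal*) passed the threshold, beside 0.0939% of all tested probe sets. Their list summed to 27186 and 29424 in S1/2-/- mice at ZT16 and 29375 and 30520 at ZT4, against 23219 and 23565 in WT mice at ZT16 and 17545 and 19256 at ZT4 (*Mbp* and *Mobp* were the most abundant). Striatal markers, led by *Penk* and *Pde1b*, summed to 10452 and 16422 in S1/2-/- mice at ZT16 and 12364 and 18734 at ZT4, against 14282 and 18565 in WT mice at ZT16 and 6528 and 7056 at ZT4. Markers of choroid plexus, led by *Igfbp2* and *Ttr*, summed to 1816 and 1793 in S1/2-/- mice at ZT16 and 3601 and 2091 at ZT4, against 5043 and 4581 in WT mice at ZT16 and 1447 and 1924 at ZT4. Of the 9 choroid plexus markers in this sum, 3 passed the filter on low signals. With time in WT mice, *Ttr* gave a log2 fold change of 3.91, *Cox8b* 0.54 and *Igfbp2* -0.008. The part of oligodendrocytes, striatal neurons and choroid plexus in the values of the ER chaperones was not tested. Astrocyte markers (*Aldoc* and *Gja1* were the most abundant) summed to 15244 to 18861 over the 8 arrays, yet 7 of 8 were higher in S1/2-/- than in WT mice at ZT16 (median log2 fold change 0.55) and 8 of 8 at ZT4 (0.18). *Gfap* passed the threshold in the mean over both times, with a log2 fold change of 1.15 (limma adjusted p = 0.00979), where *Aqp4* and *Slc1a2* gave 0.65 and 0.70 without passing. Cortical excitatory neuron markers, led by *Tbr1* and *Nrgn*, were present on every array, with sums of 13208 to 18182. Of these, 6 of 8 were higher in S1/2-/- mice at ZT16 (median 0.29, beside 0.22 for the ER chaperones) and 6 of 8 at ZT4 (0.11). At ZT16, 3 had an unadjusted p under 0.05 in limma, beside 10.9% of all tested probe sets: *Nrgn* (0.57), *Cux2* (0.91) and *Neurod2* (0.45). Of the excitatory neuron markers 0 passed the threshold. The single markers named beyond the most abundant were chosen after their values were seen. The part of astrocytes and neurons in the values of the ER chaperones was not tested either. Over the 8 arrays the sums were 5252 to 6553 for microglia (*Csf1r*, *C1qa*), 4813 to 6199 for meninges and fibroblasts (*Igf2*, *Col1a2*) and 1880.5 to 2467 for endothelium (*Cldn5*, *Flt1*).

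By array, the members stood highest in S1/2-/- mice at ZT16. As log2 signal minus the mean of a probe set over the 8 arrays, their median was 0.25 and 0.14 in the S1/2-/- mice at ZT16, where 13 and 11 of 13 lay above 0, and -0.03 and -0.16 in the S1/2-/- mice at ZT4. In WT mice it was 0.11 and -0.07 at ZT16, and 0.02 and -0.17 at ZT4. The mice of each WT group thus lay on both sides of 0, and the WT groups overlapped, whereas both S1/2-/- mice at ZT16 were above both at ZT4. The same median over all tested probe sets was between 0.002 and 0.02 on every array.

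**Figure D5:**
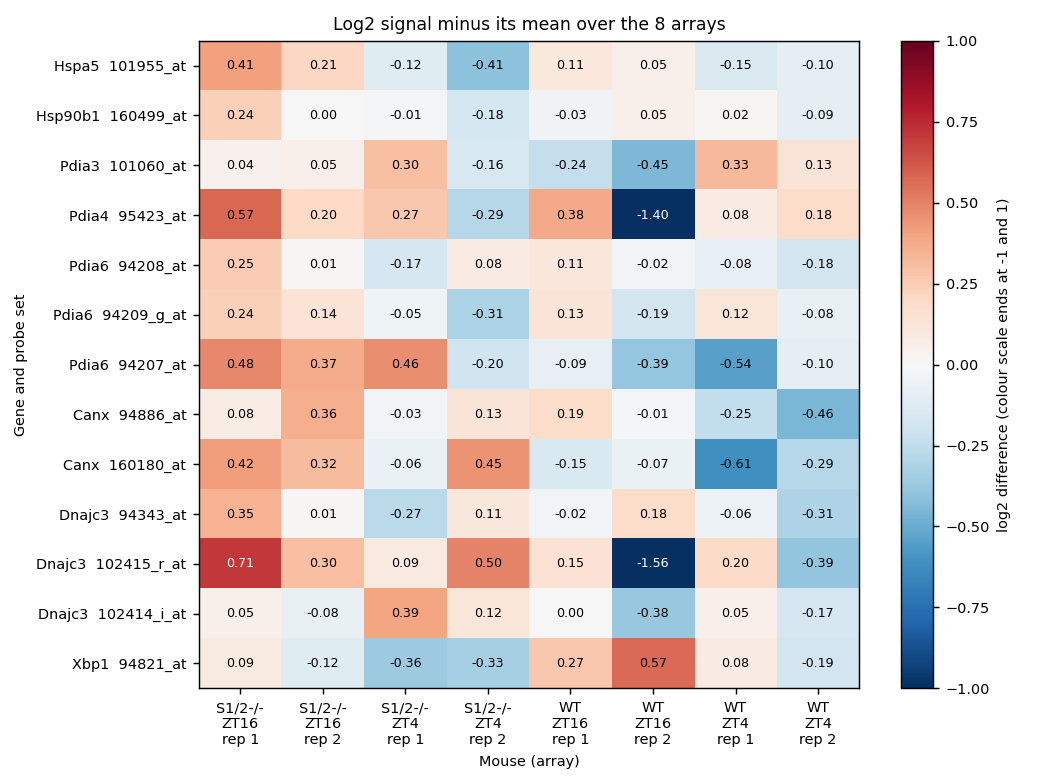
Log2 signal of each tested probe set minus its mean over the 8 arrays (colour and printed value; the colour scale ends at -1 and 1), with an array per column. The first column, S1/2-/- ZT16 replicate 1, is above 0 in all 13 rows, and the values of -1.40 and -1.56 in WT ZT16 replicate 2 belong to Pdia4 and 102415_r_at of Dnajc3.

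Pairs of members correlated with a median r of 0.30 over the 8 arrays, with 61 of 78 pairs above 0 and a range of -0.70 to 0.87. The strongest pair was 94208_at of *Pdia6* with 94343_at of *Dnajc3* (0.87). *Xbp1* correlated at 0.46 with *Hspa5* and at -0.63 with *Pdia3*. Of all tested probe sets with 1 gene symbol, those most like *Hspa5* were *Foxo4* (r = 0.94), *Tcf3* (0.94), *Ylpm1* (0.94), *Cystm1* (0.92) and *Chst2* (0.92). Among all 7453 tested probe sets, with any number of symbols, *Hsp90b1* ranked 41 in likeness to *Hspa5* and 94209_g_at of *Pdia6* ranked 120. In the same order *Canx*, *Dnajc3* and *Pdia4* ranked from 995 to 5379. With 8 points that share group, scaling and mouse, these correlations are descriptions.

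Other genes of the compartment were taken from textbook lists. Of 25 tested genes for other folding factors, 9 were higher at ZT16 in S1/2-/- mice (median log2 fold change -0.05) and 18 in WT mice (0.10). *Manf*, a secreted ER stress protein, gave a log2 fold change with time of 0.61 in WT mice (SE 0.18, limma adjusted p = 0.539), and *Rcn2*, a calcium-binding protein of the lumen, gave -0.42 (limma adjusted p = 0.625). In S1/2-/- mice *Serpinh1*, the collagen chaperone HSP47, gave 0.52, and *Uggt1*, the glucosyltransferase that senses misfolded glycoproteins, gave -0.84 (limma adjusted p = 0.638 and 0.539). Against WT mice, S1/2-/- mice had 16 of the 25 higher at ZT4 and 10 at ZT16. The lowest p at ZT4 belonged to *Clgn*, the calmegin gene, with a log2 fold change of 1.95, and to *Dnajb9*, a J-domain partner of BiP, with 0.42 (limma adjusted p = 0.402 and 0.641). The probe set of *Clgn* has the suffix r. Its change had an SE of 0.55, and its WT signals at ZT4 were 58.4 and 197. At ZT16 the lowest p belonged to *Uggt1* (-0.71) and *Txndc12* (-0.45), a thioredoxin-like protein of the ER (limma adjusted p = 0.392 and 0.537).

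Of 15 tested genes of ER degradation, 7 were higher at ZT16 in either genotype, and 8 were higher in S1/2-/- than in WT mice at ZT16 and at ZT4. *Marchf6*, a ubiquitin ligase of the ER membrane, gave -0.29 with time in S1/2-/- and -0.18 in WT mice, and -0.29 and -0.18 for S1/2-/- over WT at ZT16 and ZT4. *Ubxn4*, which recruits the segregase VCP, gave 0.39 with time in S1/2-/- mice, *Man1b1*, a mannosidase, gave 0.32 with time in WT mice and -0.39 for the genotypes at ZT16, and *Vcp* itself gave -0.33 for the genotypes at ZT4. The limma adjusted p of these values was from 0.365 to 0.743.

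Of 15 tested factors of the unfolded protein response, 6 were higher at ZT16 in S1/2-/- and 5 in WT mice, and 9 and 8 were higher in S1/2-/- than in WT mice at ZT16 and ZT4. *Atf6b*, the paralogue of *Atf6*, gave 0.74 with time in S1/2-/- and -0.37 in WT mice, and 0.60 and -0.51 for the genotypes at ZT16 and ZT4. Its probe set has the suffix r. *Atf6* gave -0.32 with time in WT mice. *Bak1*, a pore-forming protein of cell death, gave 0.49 with time in S1/2-/- mice, *Cebpb*, a transcription factor, -0.44 for the genotypes at ZT4, and *Wfs1*, the wolframin gene, 0.41 for the genotypes at ZT16. All had a limma adjusted p from 0.377 to 0.710.

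Of 33 tested genes of ER entry and glycosylation, 18 were higher at ZT16 in S1/2-/- and 16 in WT mice, and 16 and 14 were higher in S1/2-/- than in WT mice at ZT16 and ZT4. *Srp19* of the signal recognition particle and *Rpn2* of the oligosaccharyltransferase gave 0.50 and 0.32 with time in S1/2-/- mice. *Spcs2* of the signal peptidase gave 0.70 with time in WT mice and 0.62 for the genotypes at ZT4, *Sec62* of the translocon gave -0.42 with time in WT mice, and *Sec11a* of the signal peptidase -0.61 for the genotypes at ZT4. At ZT16 *Dad1* of the oligosaccharyltransferase gave -0.35 and *Kdelr1*, a receptor that returns chaperones to the ER, gave -0.25. All had a limma adjusted p from 0.372 to 0.638, and 0 genes of these 4 groups passed the threshold in any comparison. In the 4 comparisons of 2 groups, each of them had 0 to 4 genes with an unadjusted p under 0.05 in limma. The share of all tested probe sets was 7.31% and 7.61% with time in S1/2-/- and WT mice, and 7.29% and 10.9% between the genotypes at ZT4 and ZT16.

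The full ER stress response element was in 2 of 49 windows of other folding factors (4.08%), 2 of 24 of ER degradation (8.33%), 0 of 26 of the response factors and 0 of 33 of ER entry, beside 0.119% of all windows. The shorter form was in 2 of 49, 5 of 24 (20.8%), 0 of 26 and 0 of 33 in the same order, beside 0.365% of all windows. Of all genes with the element in their window, 10 were tested, 5 of them members. The other 5 were *Adcy3*, *Creld2*, *Ero1b*, *Pan2* and *Ptgdr2*, of which *Creld2* and *Ero1b* are ER proteins. Their median log2 fold change with time was 0.02 in S1/2-/- and 0.01 in WT mice, and that of all 10 was 0.17 in either genotype, beside -0.004 and 0.004 over 4601 tested genes with a window.

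The arrays as a whole were alike. Every array had been scaled to a mean of 500 after 2% of values were trimmed at each end, array medians were 186 to 206, and replicates correlated at 0.936 to 0.940 over all probe sets on the log2 scale. *Bhlhe40*, which encodes SHARP2, gave 1043 and 889 in S1/2-/- mice at ZT16 and 913 and 834 at ZT4, against 1189 and 1285 in WT mice at ZT16 and 1074 and 983 at ZT4. Whether its probes lie in the deleted part is not known from the labels or methods, so that these values do not check the genotypes. For *Bhlhe41*, which encodes SHARP1, no probe set with this as its only gene symbol was found.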

How the data were processed

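Cortical RNA of 8 mice was measured on Affymetrix arrays. The authors deposited MAS5 signals as intensity values on a linear scale, already scaled to a common trimmed mean; the version of MAS5 is not stated. The annotation of the array gave 10833 probe sets with 1 symbol, 396 with several and 1193 with none. Controls (66) were left out and values under 1 (64) raised to 1 before the log2 transform. Probe sets whose average over the arrays reached 6.794 on the log2 scale (the 40th percentile) entered a limma 3.58.1 fit (R 4.3.3) of 4 group means over all 8 arrays, with an intensity trend (4 residual and 6.02 prior degrees of freedom), from which 7 comparisons came. Fold and adjusted p thresholds follow the methods of the study. The steps were tested on simulated data with planted changes larger than those of most members, so that the recovery of smaller changes was not tested.

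Every member was named. From the lists of other ER genes, those called or with the 2 lowest p in each comparison of 2 groups were named, as were the 5 probe sets most like *Hspa5* and the 2 most abundant markers of each cell type. Genes outside the members are represented by their probe set of highest mean. Members and lists were chosen with earlier results of these data known. Alternatives were other filters (none, 60th percentile), other scalings (quantile, median), a pseudocount (16), no trend, the unmoderated linear model, only the groups compared, the replicate number as a block, and each array left out, where the lone mouse of a group is assumed to vary like the others.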

Additional observations from a re-analysis of the deposited data

How the results depend on the processing

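No member passed the threshold under any alternative that kept all 8 arrays. With 1 array left out, 0 to 1 members passed with time in WT mice, 0 to 2 between the genotypes at ZT16 and 0 to 2 in their mean over both times, and 0 in the other 4 comparisons. All of these calls arose without WT ZT16 replicate 1 and belonged to *Pdia4* and 102415_r_at of *Dnajc3*, in fits where 100, 154 and 88 of all probe sets passed and 15.7%, 18.3% and 17.8% had an unadjusted p under 0.05. Members at an unadjusted p under 0.05 then numbered 1 to 3 with time in S1/2-/- mice, 1 to 4 with time in WT mice, 0 to 3 for the difference in these changes, 0 to 2 and 0 to 5 between the genotypes at ZT4 and ZT16, and 2 to 5 in either mean. The median log2 fold change was 0.13 to 0.35, 0.086 to 0.24, 0.05 to 0.26, -0.02 to 0.14 and 0.15 to 0.37 in the same order, 0.09 to 0.23 in the mean over genotypes and 0.06 to 0.23 in the mean over times.

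With all arrays, the count at an unadjusted p under 0.05 with time in S1/2-/- mice was 1 under median centring, without the intensity trend and under the unmoderated model. With time in WT mice it was 3 under these 3 settings and under quantile normalization. For the difference in the changes with time it was 2 under quantile normalization and 0 under the same 3 settings, and the median was 0.0012 with no filter, which adds 2 low probe sets. At ZT4 the count was 0 and the median -0.059 with the 60th percentile filter, which drops 2 probe sets, and the count was 2 without the trend. At ZT16 it was 5 under quantile normalization, 2 under median centring and without the trend and 0 under the unmoderated model. In the mean over times it was 3 with the 60th percentile filter and without the trend, and 2 under the unmoderated model. The cause was not tested where none is given. Of all tested probe sets, those called with all arrays numbered 0 to 10 with time in WT mice (1 as reported), 0 to 2 for the difference in these changes (0), 0 to 13 between the genotypes at ZT4 (7), 0 to 6 at ZT16 (1) and 0 to 22 in the mean over times (19), with 0 called without the trend and under the unmoderated model. The replicate number did not pair the mice (correlations of replicate deviations of -0.001 to 0.098). As a block it gave 2 in place of 1 for the difference in the changes and 5 in place of 4 between the genotypes at ZT16. It changed no call of a member. Below the 40th percentile filter lay *Calr* and 161868_r_at of *Dnajc3*, which were fitted without the filter alone, with a limma adjusted p of 0.898 or more in all 7 comparisons.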
